A study of Mus musculus with 6 samples.

Results

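The genes described here are 10 transcription factor genes that divide the developing neural tube along its dorsoventral axis. They were taken by name from the RNA-seq table, 10 of 23235 entries, and are ordered from dorsal (Pax3, Pax7, Olig3) through intermediate (Dbx1, Dbx2, Pax6) to ventral (Nkx6-1, Nkx6-2, Olig2, Nkx2-2). RNA-seq, which counts cDNA fragments of the mRNA in a cell population, was performed on the mouse ESC line E14Tg2a at passages 37 to 40. Pluripotent ESCs kept with LIF gave 3 samples, and NCs, made from LIF-free monolayers exposed to RA (1 µM) over 48 h, gave the other 3. Each sample came from 2 plates of 60 mm, and both conditions are the same single line, so the removal of LIF, the addition of RA and the time in culture cannot be told apart. The table holds 1 FPKM value per gene and condition (fragments normalised to transcript length in kilobases and to library size), combined by the authors from 3 samples. The values have no SD, so no test between the conditions was run here, and the columns of the authors' own comparison in the same table were not used.

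In the embryo, BMP and Wnt signals from the roof plate and Sonic hedgehog (Shh) from the notochord and floor plate pattern the neural tube from opposite sides. Progenitors read these signals with homeodomain and bHLH factors. One class, which includes Pax7, Dbx1, Dbx2, Pax6 and Irx3, is repressed by Shh signaling, whereas the other, which includes Nkx6-1, Olig2 and Nkx2-2, requires it. Pairs of factors across the classes repress each other, which sharpens the borders between progenitor domains. RA from the somites promotes the intermediate domains and, with Shh, the motor neuron domain.

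In NCs Pax6 was the most abundant transcript of the 10, whereas the ventral genes other than Nkx6-2 had at most 0.0696 FPKM. Pax6, Dbx1, Pax3 and Dbx2 were at least 2-fold higher in NCs, from 2.28-fold for Dbx2 to 693-fold for Dbx1, and none of the 10 genes was at least 2-fold lower. In bulk samples a larger share of cells expressing a gene cannot be told apart from more RNA per cell. A gene was called higher or lower when its FPKM reached 1 in the higher condition and differed at least 2-fold, without a pseudocount. By this rule 4 of 10 members were called higher, where 7.14% of all 23235 entries were called higher. The share of all entries called lower was 6.08%, against 0 of 10 members. Of the members, 2 had at least 1 FPKM in ESCs and 5 in NCs, where 53.1% of all entries reached that level in ESCs and 54.5% in NCs.

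**Figure D1:**
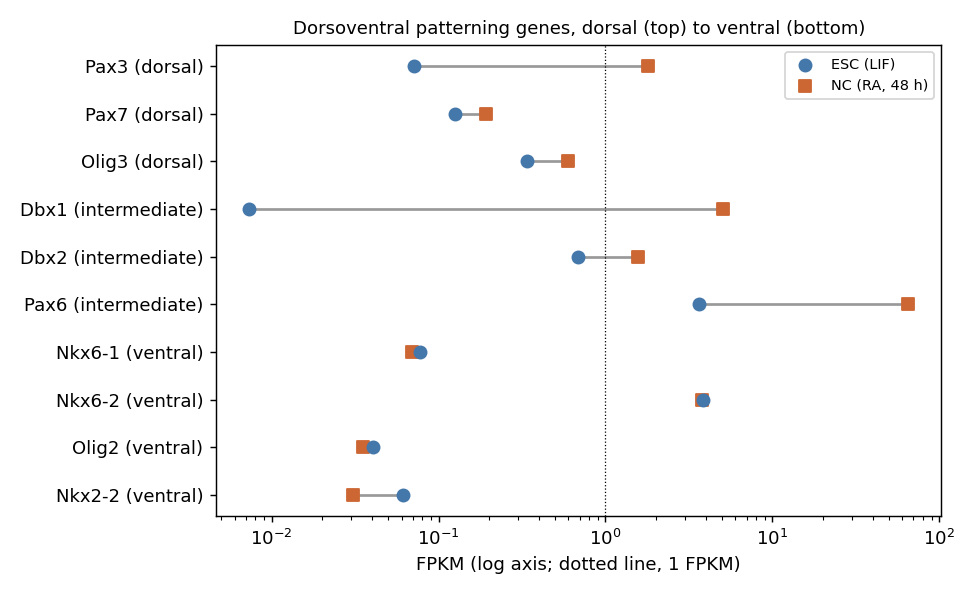
FPKM of the 10 genes in ESCs (circles) and NCs (squares) on a log axis, from the most dorsal gene at the top to the most ventral at the bottom, with 1 value per condition. The longest lines are those of Dbx1, Pax3 and Pax6, whereas the paired symbols of Nkx6-1, Nkx6-2 and Olig2 nearly coincide.

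The sequences just upstream of 3 of these genes are shown because the genes stand for the extremes of the comparison. Dbx1 had the highest ratio, Pax6 the highest FPKM in NCs, and Nkx6-2 had nearly the same FPKM in both conditions. They are from RefSeq on GRCm38.p6, 5′ to 3′ on the strand of each gene, and end before the first annotated base of the gene. They lie at chr7:49636850-49637085 (minus strand) for Dbx1, chr2:105668646-105668895 (plus strand) for the upstream start of Pax6, and chr7:139582798-139583047 (minus strand) for Nkx6-2. Capitals mark matches on either strand to the core promoter motif TATAAA, to the motif CCAAT, which the factor NF-Y binds, or to the motif GGGCGG, which the factor Sp1 binds.
Dbx1: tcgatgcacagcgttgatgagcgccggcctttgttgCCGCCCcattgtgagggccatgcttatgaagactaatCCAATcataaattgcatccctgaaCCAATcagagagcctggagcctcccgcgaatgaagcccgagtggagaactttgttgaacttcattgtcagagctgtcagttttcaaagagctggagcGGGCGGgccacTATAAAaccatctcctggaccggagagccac
Pax6: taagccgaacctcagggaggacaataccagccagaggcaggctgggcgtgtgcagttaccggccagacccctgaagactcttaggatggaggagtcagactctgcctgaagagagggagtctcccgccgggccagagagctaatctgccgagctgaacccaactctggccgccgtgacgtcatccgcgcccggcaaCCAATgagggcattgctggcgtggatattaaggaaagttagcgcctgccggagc
Nkx6-2: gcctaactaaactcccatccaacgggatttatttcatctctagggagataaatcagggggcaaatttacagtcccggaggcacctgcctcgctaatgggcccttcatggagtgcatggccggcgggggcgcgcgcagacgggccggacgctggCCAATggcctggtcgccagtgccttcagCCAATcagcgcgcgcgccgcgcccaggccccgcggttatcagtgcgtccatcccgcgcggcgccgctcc

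RefSeq promoter windows were matched for 9 of the 10 genes, with none for Pax3 and 2 for Pax6. Only the 250 bases before each RefSeq start were read. Against the GENCODE gene positions, 5 of the 10 windows lie wholly inside the gene (Pax7, Dbx2, the second of Pax6, Nkx6-1 and Nkx2-2), 3 partly (Olig3, Dbx1 and Olig2) and 2 outside it, so not all of this sequence is upstream of the gene. Over 32851 promoters of the same length, 12.4% held TATAAA, 33.8% CCAAT and 32.7% GGGCGG. Of the 9 genes with a window, 3 held TATAAA, 5 CCAAT and 4 GGGCGG. Dbx1 held all of these motifs, with TATAAA 45 bases before its RefSeq start, CCAAT at 153 and 177 bases and GGGCGG at 56 and 214 bases. The Dbx1 sequence shown stops 14 bases short of that start, where the GENCODE gene begins. Olig2 held all of them too, its TATAAA 8 bases before the RefSeq start and inside the GENCODE gene. The upstream start of Pax6 had CCAAT 54 bases before it, and Nkx6-2 had CCAAT at 69 and 97 bases. The retinoic acid receptor half-site AGGTCA was in none of the 9 genes' windows, while 14% of all promoters held it. Neither a direct repeat of a looser form of that half-site with a spacing of 5 bases nor GACCACCCA, the core bound by Gli factors, was in these windows, and 0.0883% and 0.225% of all promoters held them. No match says only that these letters are not in this stretch.

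The windows differed more in CpG dinucleotides. The median of all promoters was 6 CpG in 250 bases, and 9 of the 10 windows of these genes were above it. The ventral genes held both high and low counts, with 30 CpG for Nkx6-1, 26 for Nkx6-2, 22 for Olig2 and 8 for Nkx2-2. Among the intermediate genes each window of Pax6 had 15, Dbx1 12 and Dbx2 9. Of the dorsal genes Pax7 had 13 and Olig3 4, and Pax3 had no window. This is a description of sequence, and its relation to expression was not tested.

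Depth was read from the lowest FPKM values, since the table gives no fragment totals and the depth is unknown. When FPKM was multiplied by the length to which a fragment of 200 bases can align, the low values of genes with a single transcript gathered at certain steps. The most filled steps were 0.0119 and 0.0138 FPKM kb in ESCs and 0.00715 and 0.0143 FPKM kb in NCs, and they held 48.6% of 323 low values in ESCs and 56.6% of 412 in NCs. The larger NC step is about 2 times the smaller and may stand for more than 1 fragment. At the larger step, which gives the fewest fragments, the ESC value of Dbx1 corresponds to 1 fragment and that of Pax6 to 574. The 95% intervals given here come from such numbers and the shortest transcript of each gene. They cover counting error only and not the spread between samples, and they are approximate.

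Pax3, Pax7 and Olig3 are the dorsal genes. Pax3 and Pax7 encode closely related paired-box homeodomain factors of dorsal progenitors, which also mark somites and neural crest, and Olig3 encodes a bHLH factor of the most dorsal neuronal progenitors. Pax3 (chromosome 1, 78101267 to 78197134) had 0.0717 FPKM in ESCs against 1.81 FPKM in NCs, with a counting interval of 15.1 to 45.6 for its 25.3-fold ratio. Its paralog Pax7 (chromosome 4, 139737062 to 139833528) had 0.125 FPKM in ESCs against 0.192 FPKM in NCs, a ratio of 1.53 with an interval of 0.736 to 3.28. Olig3 (chromosome 10, 19356533 to 19358604) had 0.341 FPKM in ESCs against 0.599 FPKM in NCs, a ratio of 1.76 with an interval of 1.21 to 2.59. Pax3 was thus the dorsal gene with at least 1 FPKM, and Pax7 and Olig3 stayed under 1 FPKM in both conditions. In ESCs, Pax7 was 1.74 times the FPKM of Pax3, and in NCs Pax3 was 9.45 times that of Pax7. The ESC order is not resolved, since the counting intervals of the levels overlapped (0.0684 to 0.21 FPKM for Pax7, 0.0401 to 0.118 FPKM for Pax3).

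Dbx1, Dbx2 and Pax6 are the intermediate genes. Dbx1 encodes the homeodomain factor of the progenitors of V0 commissural interneurons, and Dbx2 is expressed in the same domain and in those beside it. Dbx1 (chromosome 7, 49631499 to 49636849) had 0.00733 FPKM in ESCs against 5.08 FPKM in NCs. Because the ESC value corresponds to 1 fragment, the counting interval of the 693-fold ratio runs from 124 to 27419. Dbx2 (chromosome 15, 95623563 to 95655960) had 0.689 FPKM in ESCs against 1.57 FPKM in NCs, a 2.28-fold ratio with an interval of 1.89 to 2.76 that reaches below the 2-fold limit. Dbx2 was 94.0 times the FPKM of Dbx1 in ESCs, and Dbx1 was 3.24 times that of Dbx2 in NCs. The order of this pair of paralogs was therefore opposite in the conditions.

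Pax6 encodes a paired-box homeodomain factor of intermediate and ventral progenitors, the forebrain, the eye and the pancreas. Pax6 (chromosome 2, 105668900 to 105697364) had 3.64 FPKM in ESCs against 65.2 FPKM in NCs, a 17.9-fold ratio with a counting interval of 16.5 to 19.5. In ESCs its FPKM was above that of 57.7% of all entries, and in NCs above that of 94.3%. Pax6 made up 83.2% of the summed FPKM of the 10 genes in NCs and 41.0% in ESCs. The sum of all 10 was 8.89 FPKM in ESCs against 78.4 FPKM in NCs, and without Pax6 it was 5.25 and 13.2 FPKM. By position, the dorsal genes summed to 0.537 FPKM in ESCs against 2.60 FPKM in NCs, and the intermediate genes to 4.34 and 71.9 FPKM. The antisense gene Pax6os1 overlaps Pax6 without sharing an exon base in the basic GENCODE transcripts. It had 0.0109 FPKM in ESCs against 0.0818 FPKM in NCs.

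Nkx6-1, Nkx6-2, Olig2 and Nkx2-2 are the ventral genes. Nkx6-1 encodes a homeodomain factor of ventral progenitors, including those of motor neurons, and Nkx6-2 its paralog. Nkx6-2 (chromosome 7, 139579376 to 139582797) had 3.84 FPKM in ESCs against 3.80 FPKM in NCs, a ratio of 0.990 with a counting interval of 0.840 to 1.17. It had the highest ESC level of the 10 genes and made up 43.2% of their ESC sum. Inpp5a overlaps the end of Nkx6-2 on the opposite strand, without sharing an exon base in the basic GENCODE transcripts. It had 15.2 FPKM in ESCs against 14.6 FPKM in NCs. The strand setting of the libraries is not given in the sources used here, so a share of Nkx6-2 fragments from Inpp5a cannot be told apart. Nkx6-1 (chromosome 5, 101658139 to 101664996) had 0.0776 FPKM in ESCs against 0.0696 FPKM in NCs. Nkx6-2 was 49.5 times the FPKM of Nkx6-1 in ESCs and 54.6 times in NCs.

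Olig2, the bHLH gene of motor neuron and later oligodendrocyte progenitors (chromosome 16, 91225457 to 91228677), had 0.0403 FPKM in ESCs against 0.0350 FPKM in NCs. Nkx2-2, the homeodomain gene of the most ventral neuronal progenitors (chromosome 2, 147177546 to 147194243), had 0.0610 FPKM in ESCs against 0.0307 FPKM in NCs, its NC value corresponding to between 2 and 8 fragments. The counting intervals of the ratios included 1 for all 4 ventral genes and reached from 0.409 to 1.93 for Nkx6-1, from 0.241 to 3.02 for Olig2 and from 0.0454 to 3.50 for Nkx2-2. For these 3 genes a difference within its interval was not detectable at this depth. The 4 ventral genes summed to 4.02 FPKM in ESCs against 3.94 FPKM in NCs. Of the 2519 exon bases of Nkx2-2, 278 lie in the antisense gene Nkx2-2os, from which fragments without strand cannot be told apart.

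**Figure D2:**
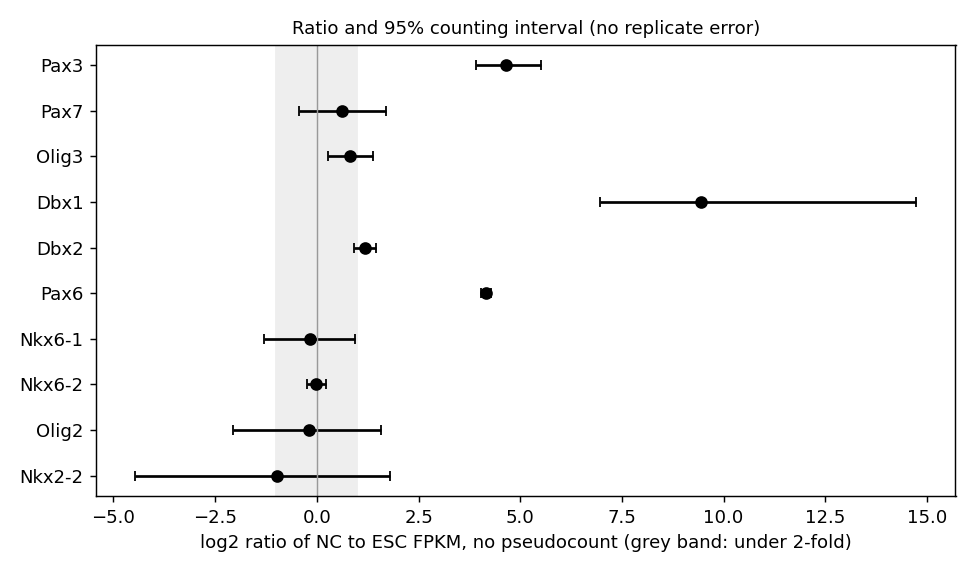
The log2 ratio of NC to ESC FPKM of each gene, without a pseudocount, with its 95% counting interval as a bar. Dbx1 lies at 9.44, Pax3 at 4.66, Pax6 at 4.16 and Dbx2 at 1.19, and the ventral genes lie between -0.99 and -0.01 with bars that cross 0.

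The order of levels differed between the conditions. In ESCs it ran from Nkx6-2 and Pax6, whose counting intervals overlapped, through Dbx2, Olig3, Pax7, Nkx6-1, Pax3, Nkx2-2 and Olig2 to Dbx1, and from Pax7 on down each gene's interval overlapped that of the next. In NCs it ran from Pax6 through Dbx1, Nkx6-2, Pax3, Dbx2, Olig3, Pax7, Nkx6-1 and Olig2 to Nkx2-2. Here the intervals of Pax3 and Dbx2, of Nkx6-1 and Olig2, and of Olig2 and Nkx2-2 overlapped, and the other neighbours were apart. Dbx1 moved from the last to the second place, and Nkx6-2 from the first to the third.

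The factors that repress each other across a border in the embryo were set side by side within a condition. Pax6 was 59.7 times the FPKM of Nkx2-2 in ESCs and 2128 times in NCs. Irx3, the partner of Olig2 at the border of the motor neuron domain, was 20.7 times the FPKM of Olig2 in ESCs and 1125 times in NCs. Dbx2 was 8.88 times the FPKM of Nkx6-1 in ESCs and 22.5 times in NCs. For Dbx1 and Nkx6-2 the order turned, with Nkx6-2 at 524 times the FPKM of Dbx1 in ESCs and Dbx1 at 1.34 times that of Nkx6-2 in NCs. Several of these ratios rest on few fragments, and no interval was computed for them. Nkx2-2 corresponds to 4 to 10 fragments in ESCs and 2 to 8 in NCs. Olig2 corresponds to 7 to 8 fragments in ESCs and 6 to 11 in NCs, and Dbx1 in ESCs to 1. The size of the ratios that include these values is therefore uncertain. All the ratios are between summed cell populations and do not say which factors share a cell.

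**Figure D3:**
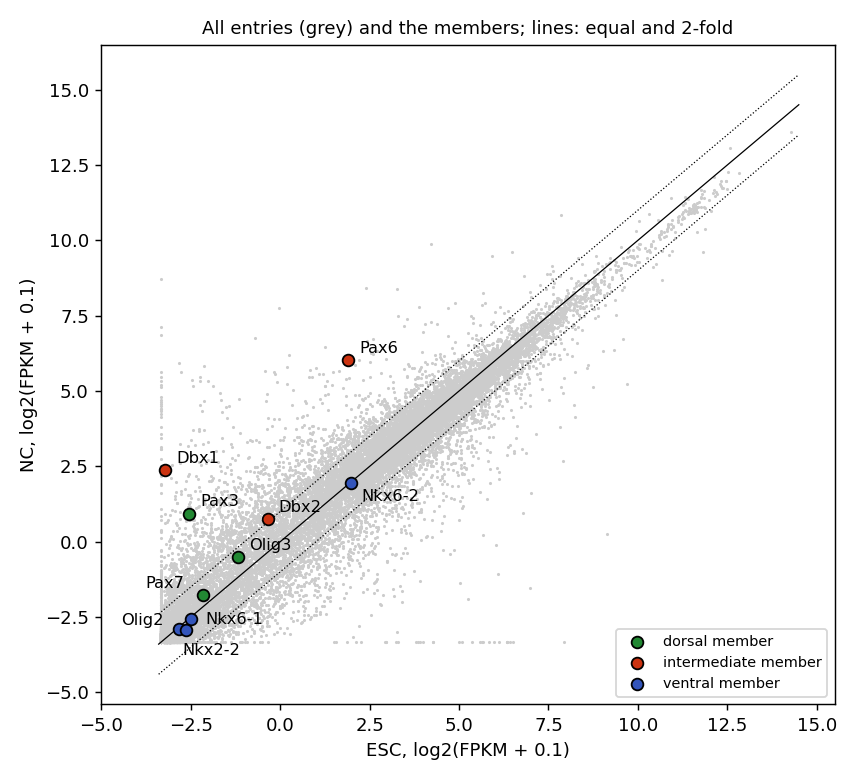
ESC against NC level of all 23235 entries (grey) and of the 10 genes, as log2(FPKM + 0.1), with a line of equal level and dotted lines at 2-fold. Dbx1, Pax3 and Pax6 lie far above the upper dotted line, Dbx2 lies close to it, and Nkx6-2 and the low ventral genes lie along the line of equal level.

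Other progenitor genes of the neural tube were read from lists, with the median on the log2(FPKM + 1) scale beside that of all entries, which was 0.000. Of 16 dorsal progenitor genes, 7 were called higher and 1 lower, and 7 stayed under 1 FPKM in both conditions, with a median log2 ratio of 0.71. The homeobox genes Msx1 (0.117 FPKM in ESCs against 5.75 FPKM in NCs) and Msx2 (0.704 and 4.11 FPKM), which BMP signaling induces in the dorsal midline, were among the higher ones. Msx3 had 0.0896 FPKM in ESCs against 1.56 FPKM in NCs, and the roof plate gene Lmx1a had 0.218 and 3.06 FPKM. Zic1, a zinc finger gene of the dorsal neural tube, had 0.0717 FPKM in ESCs against 4.68 FPKM in NCs. The roof plate ligand gene Wnt1 had 0.00633 FPKM in ESCs against 1.77 FPKM in NCs, and Gdf7, the gene of a BMP ligand of the roof plate, had 0.230 and 1.10 FPKM. Zic5 was the gene called lower, with 9.37 FPKM in ESCs against 4.34 FPKM in NCs. The proneural genes Atoh1 and Ptf1a and the homeobox genes Gsx1 and Gsx2 had at most 0.0920 FPKM in NCs. The proneural genes Neurog2, with 0.0436 FPKM in ESCs against 0.913 FPKM in NCs, and Neurog1, with 0.0958 and 0.710 FPKM, had the higher value in NCs but stayed under 1 FPKM.

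Of 13 intermediate and ventral progenitor genes, 8 were called higher and none lower, with a median log2 ratio of 1.28. Irx3, a homeobox gene of intermediate progenitors, had 0.835 FPKM in ESCs against 39.4 FPKM in NCs, and its neighbor Irx5 had 0.317 and 6.52 FPKM. Sp8 had 0.0444 FPKM in ESCs against 6.06 FPKM in NCs, and Prdm12, which marks the progenitors of V1 interneurons, had 0.0193 and 1.02 FPKM. Several genes of the floor plate and the most ventral progenitors were higher as well, in contrast to Nkx2-2. Nkx2-9, which overlaps Nkx2-2 in the embryo, had 0.938 FPKM in ESCs against 4.65 FPKM in NCs. In NCs it was 152 times the FPKM of Nkx2-2, whose NC value corresponds to only 2 to 8 fragments. Foxa2, the forkhead gene of the floor plate and endoderm, had 0.617 FPKM in ESCs against 5.24 FPKM in NCs, and Foxa1 had 0.227 and 8.02 FPKM. The axon guidance ligand gene Ntn1 had 3.56 FPKM in ESCs against 10.1 FPKM in NCs.

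Endoderm markers were read beside Foxa1 and Foxa2. Of 8 endoderm markers, 6 were called higher in NCs and none lower, and their summed level was 18.98 FPKM in ESCs against 43.6 FPKM in NCs. Foxa2 belongs to that list too, so it is part of these calls and of the sum. Sox17 had 0.861 FPKM in ESCs against 4.0 FPKM in NCs. Gata6 had 2.37 FPKM in ESCs against 5.48 FPKM in NCs, a 2.31-fold ratio. Cubn (2.03-fold), Sox7 (2.06-fold) and Dab2 (2.15-fold) were just above the 2-fold limit. Gata4 was not called, with 3.30 FPKM in ESCs against 3.69 FPKM in NCs, and Afp, a defining marker, had 0.0871 FPKM in NCs. The part of endoderm in the levels of Foxa1 and Foxa2 was not tested.

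Hedgehog pathway genes were measured at widely different levels. The ESC level of Shh itself was listed at 0, and its NC level was 0.374 FPKM, and the ligand genes Dhh and Ihh stayed under 1 FPKM. Of 15 pathway genes, 6 were called higher and none lower, with a median log2 ratio of 0.74. Those 6 include all 3 genes of the co-receptors that bind the ligand beside Ptch1. Gas1 had 2.27 FPKM in ESCs against 87.4 FPKM in NCs, Boc 1.58 and 9.76 FPKM, and Cdon 4.67 and 19.6 FPKM. The signal transducer gene Smo had 16.7 FPKM in ESCs against 43.9 FPKM in NCs, and Gli3, whose product acts mainly as a repressor without ligand, had 2.11 and 10.6 FPKM. Disp1, needed for ligand release, had 2.21 and 4.97 FPKM.

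Targets of the pathway were measured too. Gli1 had 12.9 FPKM in ESCs against 11.9 FPKM in NCs, and Ptch1 had 25.5 and 43.0 FPKM. Neither differed 2-fold. Hhip, which encodes a ligand-binding antagonist and is also a target, had 0.141 FPKM in ESCs against 0.905 FPKM in NCs, a 6.41-fold ratio that was not called because both values were under 1 FPKM.

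**Figure D4:**
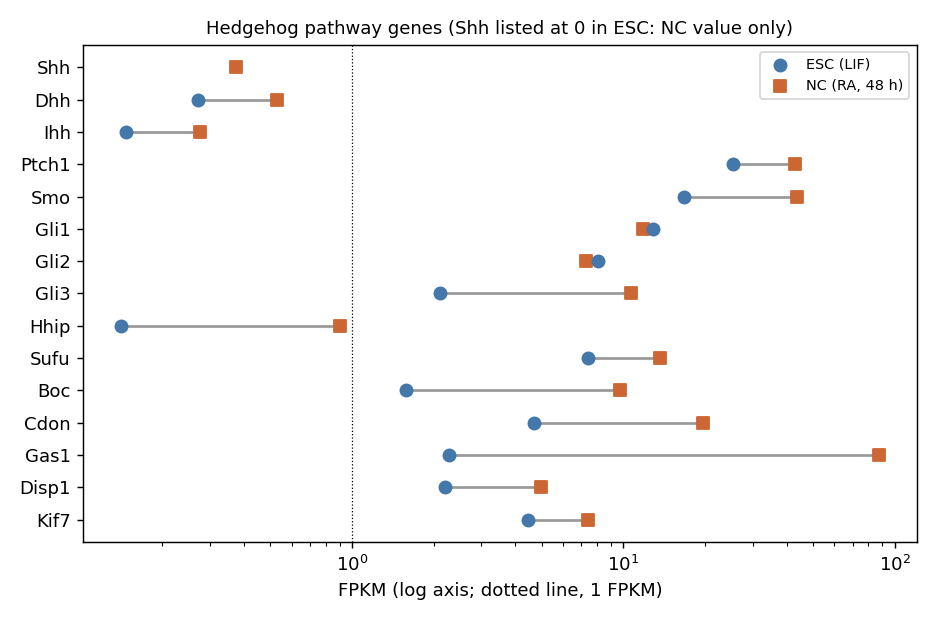
FPKM of the 15 hedgehog pathway genes in ESCs (circles) and NCs (squares) on a log axis, with 1 value per condition. Gas1 has the longest line, Gli1 and Gli2 have nearly coinciding symbols, and Shh has only an NC symbol because it is listed at 0 in ESCs.

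All 11 genes of the dorsalizing BMP and Wnt signals and their antagonists had the higher FPKM in NCs, and 6 were called higher. Bmp2 had 0.209 FPKM in ESCs against 2.20 FPKM in NCs, and Bmp7 had 7.14 and 16.5 FPKM. The BMP antagonist gene Nog had 1.04 and 3.30 FPKM. The median log2 ratio of the list was 0.77.

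Genes of the neurons that these progenitors form were mostly low. Of 26 postmitotic neural tube neuron genes, 18 stayed under 1 FPKM in both conditions, 8 were called higher and none lower, and the median log2 ratio was 0.09. The 4 genes with the largest difference on log2(FPKM + 1) were Gata3 (0.204 FPKM in ESCs against 4.02 FPKM in NCs), Lhx1 (0.108 and 3.39 FPKM), Lhx2 (0.222 and 2.91 FPKM) and Mnx1 (0.341 and 1.94 FPKM). Without a pseudocount the ratio of Pax2, a gene of the same list with 0.0587 FPKM in ESCs against 1.27 FPKM in NCs, was 21.7-fold and above the 19.8-fold ratio of Gata3. Mnx1 marks motor neurons, whereas Lhx3, which motor neurons also need, had 0.0407 FPKM in NCs and Chat, their transmitter gene, 0.0401 FPKM. Evx1, the gene of the V0 neurons that Dbx1 progenitors form, had 0.0350 FPKM in ESCs against 0.0155 FPKM in NCs.

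Markers were read to place the cells. Of 11 pan-neural progenitor genes, 5 were called higher and 3 lower. Cdh2 had 2.28 FPKM in ESCs against 35.5 FPKM in NCs, Sox1 1.77 and 21.8 FPKM and Sox3 4.37 and 21.9 FPKM. Pou3f1, an early neural gene also present in primed pluripotent cells, had 12.7 and 2.11 FPKM, and Sox2, shared by neural progenitors and ESCs, had 258.2 and 74.1 FPKM. All 7 retinoic acid response genes were called higher, with a median log2 ratio of 5.62, and all 6 pluripotency markers were called lower. The pluripotency markers summed to 81.4 FPKM in NCs, against 2078 FPKM in ESCs, so their transcripts were still present beside those of Pax6 and Dbx1.

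Cell types that also express members of the 10 genes were checked in the same way, and the part of each in the levels of Pax3, Pax6 and Olig2 was not tested. For Pax3, which somites also express, 3 of 10 mesoderm and somite markers were called higher and 1 lower, and the summed level was 39.0 FPKM in ESCs against 17.98 FPKM in NCs. Without Tcf15, left out after its value was seen, the other 9 markers summed to 2.61 FPKM in ESCs against 12.6 FPKM in NCs, so the direction of the sum rests on that gene. Meox1 had 0.253 FPKM in ESCs against 5.43 FPKM in NCs and Foxc2 0.189 and 3.16 FPKM, whereas Tcf15 had 36.4 and 5.37 FPKM. The myogenic genes Myf5 and Myod1 had at most 0.117 FPKM in NCs. Of 7 neural crest markers, which also bear on Pax3, 4 were called higher and 1 lower, with sums of 9.18 FPKM in ESCs against 16.98 FPKM in NCs. Tfap2b had 0.0332 FPKM in ESCs against 3.0 FPKM in NCs, and Foxd3 had 4.70 and 0.334 FPKM.

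For Pax6, none of 7 pancreas and eye markers reached 1 FPKM in either condition. The forebrain, where Pax6 is also expressed, had no list of its own and was not checked. Of these 7 markers, 6 had the higher value in NCs, among them Pdx1 with 0.0220 FPKM in ESCs against 0.394 FPKM in NCs. The insulin and glucagon genes Ins1, Ins2 and Gcg had 0 FPKM listed for ESCs, and in NCs none exceeded 0.320 FPKM. For Olig2, 1 of 5 oligodendrocyte lineage markers was called higher, Pdgfra with 0.983 FPKM in ESCs against 2.82 FPKM in NCs. Cspg4 had the lower value in NCs (0.157 FPKM in ESCs against 0.0798 FPKM in NCs), and the other 3 were not called. The 5 markers summed to 7.61 FPKM in ESCs against 12.4 FPKM in NCs.

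**Figure D5:**
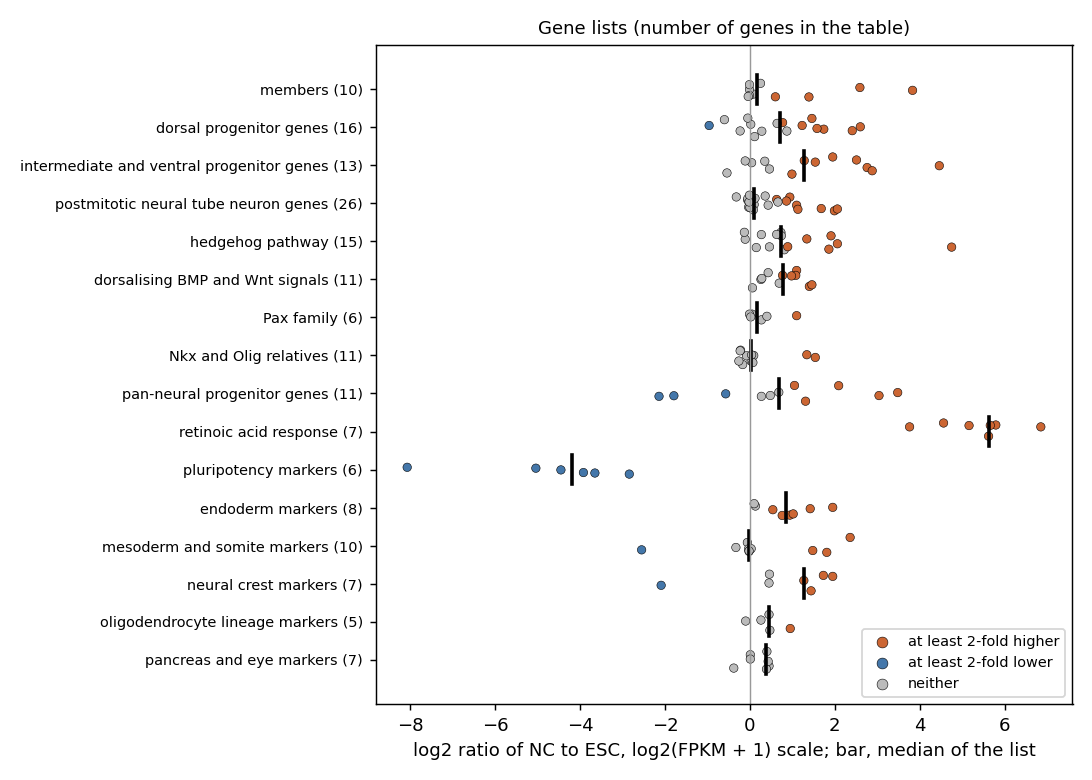
The log2 ratio of NC to ESC on the log2(FPKM + 1) scale for each gene of each list, with the number of genes in parentheses, a bar at the list's median and colors for genes at least 2-fold higher or lower. The pluripotency markers all lie to the left of 0 and the retinoic acid response genes all to the right, and the progenitor lists hold points on both sides.

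Among 148 other genes of the lists, those with the most similar pair of levels were found for each member that reached 1 FPKM, by distance on log2(FPKM + 0.1). Msx3 was nearest to Pax3 (distance 0.248), Sp8 to Dbx1 (0.496), Sox7 to Dbx2 (0.101), Dhrs3 to Pax6 (0.589) and Gata4 to Nkx6-2 (0.216). The measure rests on 2 conditions and describes levels only.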

How the data were processed

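RNA-seq of 3 ESC and 3 NC samples was grouped by the sample titles. Per the labels, reads were aligned to mm10 with TopHat2 (2.0.8), which ran Bowtie2 (2.1.0), and transcripts were quantified with Cufflinks (2.0.2), Cuffmerge and Cuffdiff. The authors deposited FPKM values, 1 per gene and condition. The heading of the NC column reads FPK and was taken as FPKM. The columns of the authors' own comparison (fold change, statistic, p and q) were not used. The annotation release is not given in the sources used here.

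Ratios were computed without a pseudocount, and list medians on log2(FPKM + 1). A call required 1 FPKM in the higher condition and a 2-fold difference. Members and lists were chosen with earlier results of these data known. All members were named. From the lists, called genes with the largest change on log2(FPKM + 1) were to be named, up to 4, with markers near 0. The limit was 8 for neural tube progenitor and hedgehog genes. This rule was not kept throughout. Some lists have fewer such genes named, and the retinoic acid response and pluripotency lists none. The pan-neural, endoderm and postmitotic neuron lists have more. A few further genes of the lists are not reported here and were left out of their counts. Other genes that are given as uncalled were chosen after their values were seen. Counting intervals (95%) of ratios were exact binomial, and those of levels exact Poisson. Gene positions and transcripts came from GENCODE M21 on GRCm38, the assembly of mm10, and promoters from RefSeq on GRCm38.p6. Exons and transcript lengths were those of the basic GENCODE set only. Of the 50-base words of these genes' transcripts, at most 0.426% (Pax6) occur in another gene. The alternatives were pseudocounts of 0.1 and 1, minimum levels, fold limits, centring and names that occur once. Python 3.11.15 ran pandas 2.3.3 and numpy 2.4.6 for tables, scipy 1.17.1 for intervals and matplotlib 3.10.9 for plots.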

Additional observations from a re-analysis of the deposited data

How the results depend on the processing

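No paired analysis was possible because single replicates have no values in the table, and for the same reason no replicate could be left out. The direction of no called member turned under the alternatives, but pseudocounts, minimum levels and fold limits cannot turn it. Only centring could, and it subtracted a median log2 ratio of just -0.05, so the unchanged direction is no check of robustness. Dbx2 was no longer called with a pseudocount of 1 or a 4-fold limit, and Dbx2 and Pax3 were not called with a minimum of 2 FPKM, which left 2 members called higher and 3 at or above the minimum in NCs. Of 30 ratios of the members recomputed with pseudocounts or centring, 23 stayed within their counting interval and 7 did not. A pseudocount of 1 gave a log2 ratio of 2.59 for Dbx1, 1.39 for Pax3 and 3.83 for Pax6. The counts over all entries, 1658 higher and 1412 lower, depended on the limits. They were 2741 higher and 2573 lower at 1.5-fold, 679 and 488 at 4-fold, and 2947 and 2403 with no minimum for entries above 0 in both conditions. With a pseudocount of 1, 1074 entries were called higher. Depth limits Olig2, Nkx2-2 and the ESC value of Dbx1 most.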

Other observations

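Most Pax, Nkx and Olig relatives of the 10 genes stayed under 1 FPKM. The relatives Pax2, Pax8 and Nkx2-9 also belong to the neural tube lists. Of the other 6 Pax genes in the list, Pax2 was called higher, with 0.0587 FPKM in ESCs against 1.27 FPKM in NCs. Pax8 had 0.674 FPKM in ESCs against 0.698 FPKM in NCs, and Pax4, which was listed at 0 in ESCs, had 0.0323 FPKM in NCs. Of 11 Nkx and Olig relatives in the table, 2 were called higher, Nkx2-9 and Nkx2-5, a gene of the early heart that had 0.333 FPKM in ESCs against 2.38 FPKM in NCs. Olig1, which lies beside Olig2 on its chromosome, had 0.403 FPKM in ESCs against 0.196 FPKM in NCs.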
